A study of Mus musculus with 42 samples.

Results

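The 37 genes described here encode the protein-folding machinery of the endoplasmic reticulum (ER) and the signalling proteins of the unfolded protein response. They were chosen by name, with earlier results of these data known, from the 47643 genes of each deposited table. A mean of at least 10 normalized reads was the only numerical condition, which all 37 met in both the aged and the young table. The set holds 11 chaperones and co-chaperones of the ER lumen, 6 enzymes of disulfide bond formation, 6 stress sensors and transcription factors, 8 proteins of ER-associated degradation (ERAD) and 6 subunits of the translocon, the channel through which new proteins enter the ER, and of its partner TRAP.

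Proteins bound for secretion, lysosomes or the cell surface fold in the ER with the help of HSP70- and HSP90-type chaperones, lectin chaperones for glycoproteins and protein disulfide isomerases. When unfolded proteins accumulate, 3 membrane sensors signal to the nucleus. IRE1 (Ern1) splices the Xbp1 mRNA, PERK (Eif2ak3) slows translation and favours that of ATF4, and ATF6 is cut to release a transcription factor. Their output raises chaperone and ERAD genes, and under lasting stress the pro-apoptotic factor CHOP (Ddit3). Macrophages make large amounts of secreted and membrane proteins and draw on this machinery in immune responses.

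The study asked how ageing affects daily gene expression in immune cells. Macrophages came from aged C57BL/6 mice of 18 to 20 months and from young C57BL/6 mice of 2 to 3 months, collected at zeitgeber time (ZT, hours counted from lights on) 0, 4, 8, 12, 16, 20 and 24, with 3 libraries per age and time and 42 in all. No treatment or genetic change is given for either age, and the labels name neither the tissue of origin, the sex nor whether a library is 1 mouse or a pool. RNA was sequenced from the 3′ ends of transcripts. The ages were normalized in separate tables, so age cannot be told apart from any handling that differed between the tables. Recovered reads per library numbered 4864402 to 15587030 in aged and 7433159 to 13574542 in young macrophages. In both ages 6 core clock genes passed the 24 h test, which 0.308% of all genes tested passed in aged and 3.62% in young macrophages. Macrophage markers were high in all libraries. Their summed level over 10 genes was 204028 to 347012 rescaled reads in aged and 261037 to 375079 in young libraries. Most of this sum is Lyz2, which averaged 215752 in aged and 255415 in young libraries. Csf1r, Cd68, Mrc1 and C1qa also averaged lower in aged libraries, and Adgre1, Cd14, Itgam, Fcgr1 and Mertk higher. In such bulk libraries, fewer cells of a type and less RNA per cell cannot be told apart.

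Most of the ER chaperones (9 of 11) followed the time of day in young macrophages. Their means were low at ZT8 and ZT12, higher again at ZT16 and highest at ZT0 or ZT24. The fitted peaks of the genes that passed the test lay between ZT20.2 and ZT23.1. A 24 h cosine was fitted to log2 values within each age, its amplitude being the log2 distance from mean to peak, and tested with limma (F-test, Benjamini-Hochberg adjustment over all genes tested, threshold 0.05). None of the 37 genes passed in aged macrophages, where 0.308% of all 12016 genes tested did, and 13 of 37 passed in young macrophages (35.1%), where 3.62% of all 12113 genes did. At an unadjusted p under 0.05 the counts were 9 of 37 in aged (24.3%, against 9.01% of all genes) and 21 of 37 in young macrophages (56.8%, against 17.2%). By role, the young calls were 9 of 11 chaperones, 2 of 6 disulfide enzymes, 1 of 6 sensors and factors, 1 of 8 ERAD genes and 0 of 6 translocon genes.

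**Figure D1:**
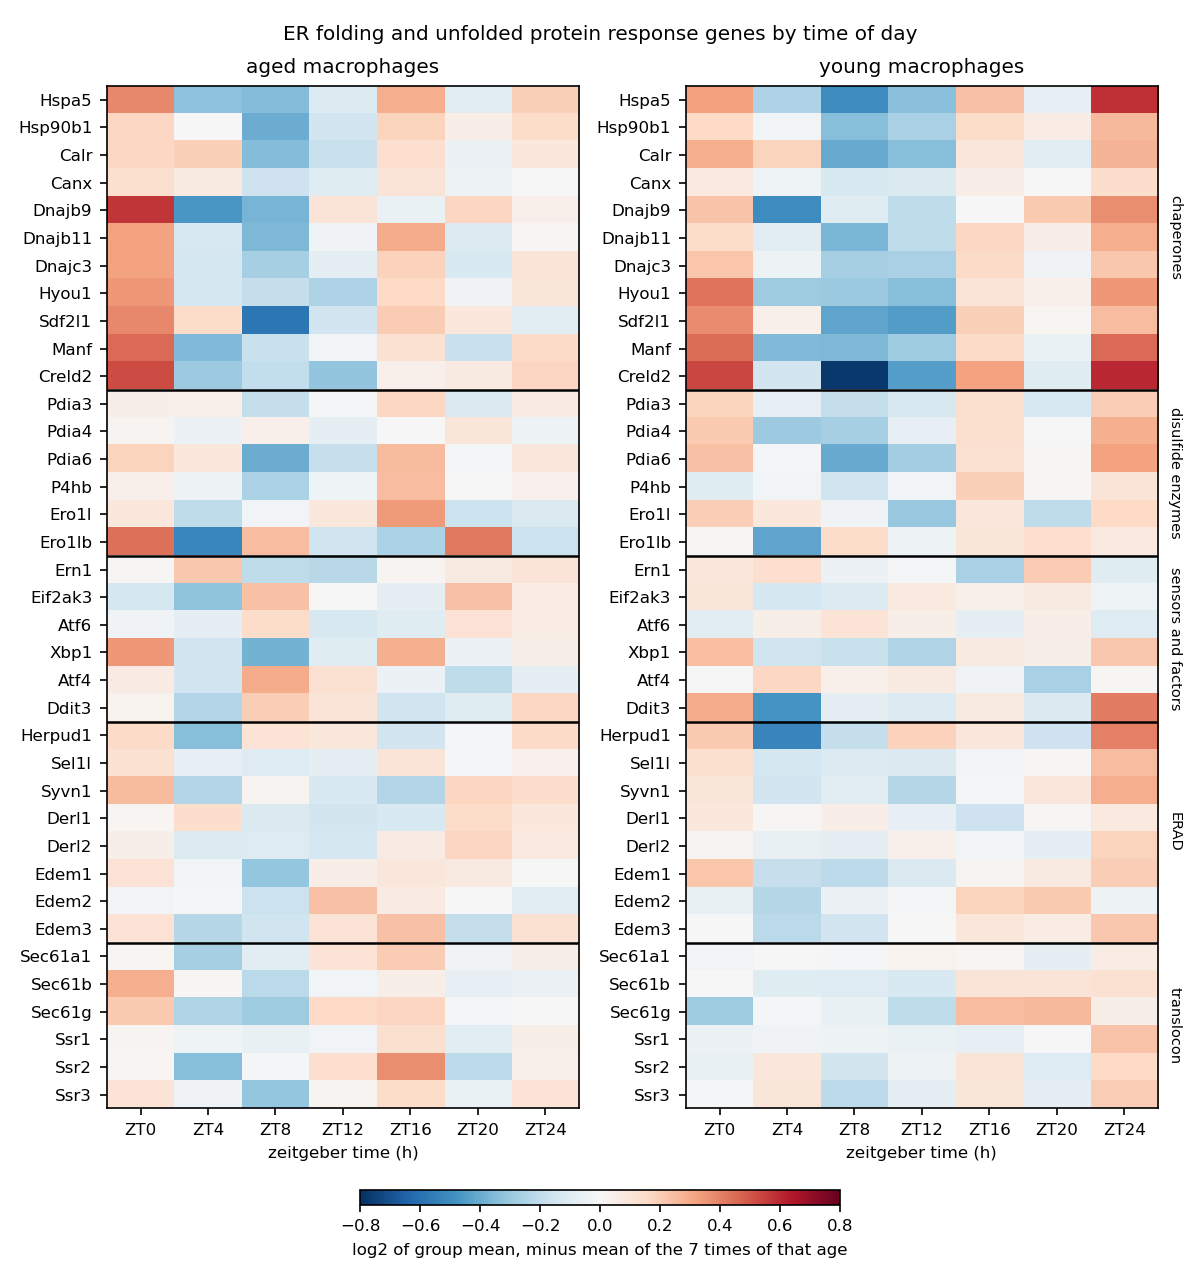
Colour gives the log2 mean of 3 libraries at each zeitgeber time (columns, h) minus the mean of the 7 times of that age, for 37 genes (rows, grouped by role), with aged macrophages on the left and young on the right. The chaperone rows are blue at ZT8 and red at ZT0 in both panels, and in young macrophages red again at ZT24.

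Hspa5 encodes BiP, the HSP70-type chaperone that also holds the 3 sensors inactive. All values below are reads scaled to a common library size, so that the ages can be set side by side. In aged macrophages Hspa5 had 19538, 31973 and 22007 at ZT0, 16216, 16223 and 12329.8 at ZT4, 20297, 9844 and 14055 at ZT8, 16557, 19121 and 16535 at ZT12. The later aged libraries had 23632, 21394 and 23912 at ZT16, 18048, 17177 and 17815 at ZT20, 20644, 17813 and 25794 at ZT24. In young macrophages it had 21614, 29446 and 24725 at ZT0, 15791, 14864 and 20236 at ZT4, 15271, 13648 and 13705 at ZT8, 14666, 16944 and 16393 at ZT12. The later young libraries had 25711, 22507 and 22967 at ZT16, 21021, 19196 and 17536 at ZT20, 26549.7, 34134 and 29951 at ZT24. In both ages the ZT0 libraries were all above the ZT4 libraries, and in young macrophages the 3 libraries at ZT8 were all below the 3 at every one of ZT0, ZT16, ZT20 and ZT24. The aged ZT8 libraries were spread widely, one of them overlapping the ZT0 range. Those libraries also differed in cell type markers: B cell markers averaged 15764 summed reads at aged ZT8 and 7499 to 13092 at the other aged times, and plasma cell markers 13869, against 6638 to 10020. Macrophage markers, a sum set mostly by Lyz2, averaged 237467 at aged ZT8, below the 260410 to 313005 of the other aged times. At young ZT8 the 3 sums averaged 7391, 6725 and 314751, against 6121 to 7278, 5622 to 6165 and 307682 to 328005 at the other young times. The part of these markers in the low aged ZT8 values was not tested. The amplitude was 0.31 ± 0.10 (SE; adjusted p = 0.411, limma) in aged and 0.41 ± 0.07 (adjusted p = 0.00155) in young macrophages, a fitted peak-to-trough ratio of 1.53 in aged and 1.77 in young.

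Its HSP90-type partner Hsp90b1 (GRP94), which folds Toll-like receptors and integrins, had the lowest p among the 37 genes in aged macrophages, with an amplitude of 0.24 ± 0.06 (adjusted p = 0.231), against 0.26 ± 0.05 (adjusted p = 0.00155) in young macrophages. It had 5372, 5368 and 6897 at ZT8 and 8679.7, 7629 and 9380.2 at ZT24 in aged libraries. It had 7203, 7069 and 7188 at ZT8 and 9552, 12344 and 10728 at ZT24 in young libraries. In both ages the ZT8 and ZT24 libraries did not overlap. Calr, the calcium-binding lectin chaperone calreticulin, had 10332, 4937 and 8040.3 at ZT8 and 9665, 8852 and 12902 at ZT24 in aged libraries. It had 8445, 8072 and 8281 at ZT8 and 12801, 13301 and 13415 at ZT24 in young libraries. The Calr times overlapped in aged macrophages (amplitude 0.19 ± 0.08, adjusted p = 0.599) and not in young ones (0.30 ± 0.05, adjusted p = 0.0021). Canx, its membrane-bound relative calnexin, had smaller amplitudes, 0.09 ± 0.05 in aged and 0.11 ± 0.04 in young macrophages, and passed in neither (adjusted p = 0.727 and 0.146).

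Several proteins that work with BiP also passed in young macrophages. Sdf2l1, which works in a complex with the J-domain protein Dnajb11, had 755, 983 and 603 at ZT0 and 444, 324 and 435 at ZT8 in aged libraries. It had 756, 966 and 1175 at ZT0 and 554, 543 and 567 at ZT8 in young libraries. In both ages all ZT0 libraries were above all ZT8 libraries. At ZT24, the same hour as ZT0, aged Sdf2l1 had 374, 523 and 793, which overlapped aged ZT8. The Sdf2l1 amplitude was 0.27 ± 0.12 in aged (adjusted p = 0.585) and 0.36 ± 0.06 in young macrophages (adjusted p = 0.00182). That of Dnajb11 was 0.22 ± 0.10 (adjusted p = 0.617) and 0.27 ± 0.05 (adjusted p = 0.00527). Dnajb11 had 1007, 1362 and 946 at ZT0 and 755, 515 and 799 at ZT8 in aged libraries. It had 912, 1115 and 1269.6 at ZT0 and 768, 809 and 731 at ZT8 in young libraries. ZT0 and ZT8 did not overlap in either age, but the aged ZT24 libraries (691, 887 and 1094.5) overlapped those of aged ZT8. Manf, an ER-resident, secretable protein that binds BiP, had 2094, 3041 and 1876 at ZT0 and 1878, 1035 and 1626 at ZT8 in aged libraries. It had 2021, 3029.7 and 2229.5 at ZT0 and 1667, 1138 and 1346 at ZT8 in young libraries. One aged ZT8 library fell just above the lowest aged ZT0 library, and the young times did not overlap. The Manf amplitude was 0.17 ± 0.10 in aged (adjusted p = 0.721) and 0.37 ± 0.07 in young macrophages (adjusted p = 0.00452).

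Creld2, an ER stress-inducible protein with epidermal growth factor-like domains, had the widest fitted rhythm among the 37 genes in both ages, 0.34 ± 0.12 in aged and 0.54 ± 0.10 in young macrophages, a peak-to-trough ratio of 1.59 in aged and 2.10 in young (adjusted p = 0.511 and 0.00543, limma). Its young libraries held 130.1, 99.5 and 135 reads at ZT8 and 291, 395 and 257 at ZT24. Hyou1 (GRP170), the nucleotide exchange factor of BiP, and Dnajc3 (p58IPK), a co-chaperone, also passed in young macrophages, with amplitudes of 0.35 ± 0.07 and 0.23 ± 0.05 (adjusted p = 0.0105 and 0.0122). Dnajb9 (ERdj4), the J-domain protein that recruits BiP to IRE1, lay just outside the threshold in young macrophages, with 0.31 ± 0.10 in aged (adjusted p = 0.46) and 0.30 ± 0.08 in young (adjusted p = 0.0544). All 11 chaperones had their fitted peak between ZT18 and ZT24 in both ages.

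Among the disulfide enzymes, Pdia6, an isomerase that also attenuates IRE1 and PERK signalling, had the lowest p of the 37 genes in young macrophages. In aged macrophages Pdia6 had 5142, 7677 and 5649 at ZT0, 7009, 5992 and 4287 at ZT4, 4696, 3295 and 4378 at ZT8, 4803, 5056 and 4506 at ZT12. The later aged libraries had 6737, 5605 and 7072 at ZT16, 5579, 5119 and 5444 at ZT20, 5442, 5291 and 6617 at ZT24. In young macrophages it had 6794, 9184 and 7914 at ZT0, 6865, 6292 and 6906 at ZT4, 5177, 4899.8 and 5269 at ZT8, 5411, 5812 and 5567 at ZT12. The later young libraries had 7404, 7235 and 7466 at ZT16, 7583, 6877 and 5947 at ZT20, 7688, 9484 and 8191 at ZT24. In young macrophages the ZT8 libraries were below those of every other time, and in aged ones they overlapped those of ZT4 and ZT12. Its amplitude was 0.22 ± 0.07 in aged (adjusted p = 0.466) and 0.29 ± 0.05 in young macrophages (adjusted p = 0.000895). Pdia4 (ERp72), a further isomerase, had 0.03 ± 0.06 in aged and 0.24 ± 0.06 in young (adjusted p = 0.964 and 0.04), and its young call was lost without 1 library in 16 of 21 cases (adjusted p up to 0.0816). The isomerases Pdia3 and P4hb and the oxidases Ero1l and Ero1lb, which reoxidize them, did not pass in either age; their young amplitudes ran from 0.11 for P4hb to 0.15 for Ero1l.

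Of the sensors and factors only Xbp1, whose spliced mRNA encodes the transcription factor that induces chaperone and ERAD genes, passed in young macrophages. In aged macrophages Xbp1 had 3764, 4773 and 3146 at ZT0, 2362, 2046 and 2648 at ZT8. The later aged libraries had 3098, 2803 and 5286 at ZT16, 2929, 3621 and 2917 at ZT24. In young macrophages it had 3225, 3628 and 3679 at ZT0, 2570.3, 2712 and 2617 at ZT8. The later young libraries had 3410.1, 2988 and 2982 at ZT16, 3454, 3528 and 3369.7 at ZT24. In both ages all ZT0 libraries lay above all ZT8 libraries, and the aged ZT16 libraries included the highest value of the gene. The amplitude was 0.24 ± 0.08 in aged (adjusted p = 0.482) and 0.22 ± 0.04 in young macrophages (adjusted p = 0.00439); these 3′ tags do not separate spliced from unspliced Xbp1. The 3 sensors and the factors of the PERK arm did not pass in either age: in young macrophages the amplitudes were 0.09 ± 0.06 for Ern1, 0.11 ± 0.06 for Eif2ak3, 0.07 ± 0.05 for Atf6, 0.13 ± 0.06 for Atf4 and 0.18 ± 0.10 for Ddit3. Their adjusted p-values (limma) ran from 0.572 to 0.978 in aged and from 0.444 to 0.741 in young macrophages.

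Of the ERAD genes, Edem1, which hands misfolded glycoproteins to degradation, passed narrowly in young macrophages (0.14 ± 0.08 in aged, adjusted p = 0.719, and 0.21 ± 0.05 in young, adjusted p = 0.0491), and the call was lost without 1 library in 15 of 21 cases (adjusted p up to 0.134, the highest). The related Edem2 and Edem3, the ubiquitin ligase Syvn1 (HRD1) and its adaptor Sel1l, the channel proteins Derl1 and Derl2 and the membrane protein Herpud1 did not pass; among them the lowest adjusted p was 0.539 for Derl1 in aged and 0.0946 for Sel1l in young macrophages. The translocon genes Sec61a1, Sec61b and Sec61g and the TRAP genes Ssr1, Ssr2 and Ssr3 did not pass either, with a lowest adjusted p of 0.523 for Sec61a1 in aged and 0.245 for Sec61b in young macrophages. Without the ZT0 libraries 9 of 37 genes passed in young macrophages (Dnajc3, Hyou1, Pdia4 and Edem1 were lost), and without the ZT24 libraries 10 (Dnajc3, Pdia4 and Edem1 were lost).

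**Figure D2:**
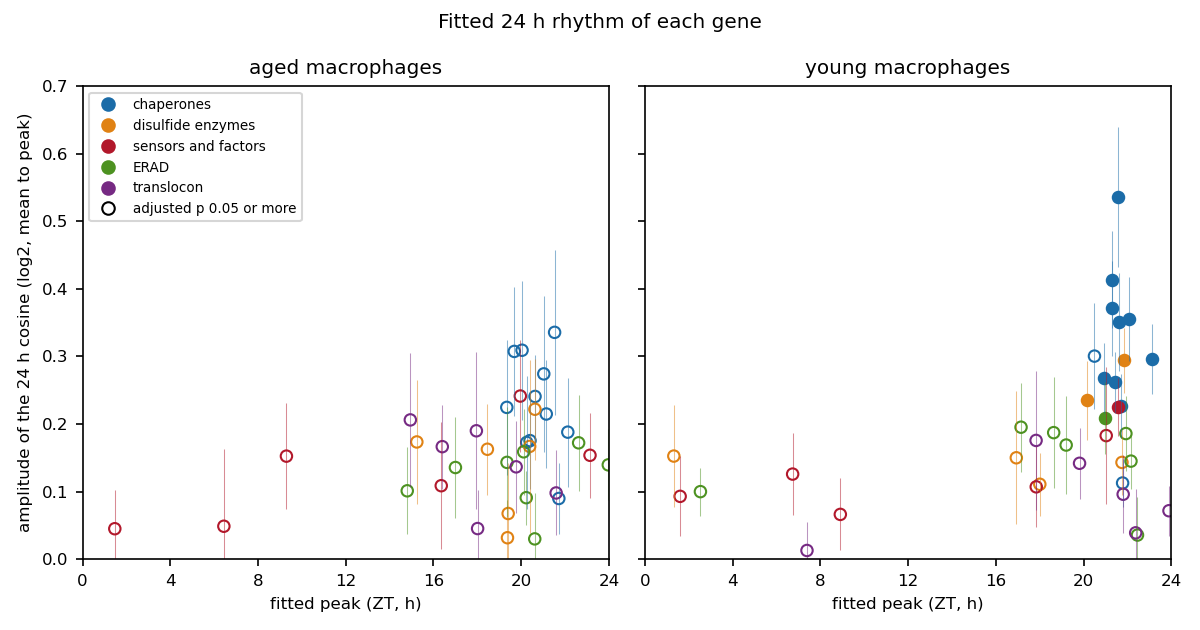
Fitted peak time (x axis, ZT in h) and amplitude (y axis, log2 from mean to peak, bars ± SE) of the 24 h cosine for each of 37 genes, coloured by role, with aged macrophages on the left and young on the right; filled points passed the test. All 11 chaperones sit between ZT18 and ZT24 in both panels, and the 13 filled points are all in the young panel.

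Promoters of the 37 genes were read for the ER stress response element (ERSE). It is the sequence bound by ATF6 and XBP1 together with the CCAAT-binding factor NF-Y. RefSeq promoters (build GRCm38.p6, 250 bases before to 50 bases after the gene start) were matched for 31 of the 37 genes, and both strands were searched. The element reads CCAAT, 9 bases of any kind, then CCACG. It stood in 9 of these 31 promoters (29.0%) and in 37 of 27025 promoters of all genes (0.14%). Known carriers such as Hspa5 are among the 37 genes, so this share describes the set and is not a test. The shorter ERSE-II, which reads ATTGG, 1 base of any kind, then CCACG, stood in 2 of 31 (6.5%), Dnajb11 and Herpud1, and in 12 of all genes (0.04%). The XBP1-type element TGACGTGG (0.71% of all promoters) and the ATF4-type element TGATGNAAT (1.08%) stood in none of the 31. Of the 9 genes with the full element, Hspa5, Hsp90b1, Calr, Dnajc3, Creld2 and Pdia6 passed the 24 h test in young macrophages, and Canx, Ero1lb and Syvn1 did not. Sdf2l1, Dnajb11, Pdia4, Xbp1 and Edem1 passed without the full element in their matched promoters. Hyou1 and Manf passed but had no matched promoter. A link between the element and the 24 h test was not tested. The Hspa5 promoter is shown whole, because Hspa5 is the best-known carrier of the element, with the element's fixed letters in capitals. Below it stand the elements of the other 8 genes and the ERSE-II sites with 5 flanking bases on each side, each 5′ to 3′ on the strand of its gene. In Calr, Creld2, Ero1lb and the second site of Hsp90b1 the element runs in reverse. The sites follow.
Hspa5 (chromosome 2, 34771840 to 34772139, plus strand): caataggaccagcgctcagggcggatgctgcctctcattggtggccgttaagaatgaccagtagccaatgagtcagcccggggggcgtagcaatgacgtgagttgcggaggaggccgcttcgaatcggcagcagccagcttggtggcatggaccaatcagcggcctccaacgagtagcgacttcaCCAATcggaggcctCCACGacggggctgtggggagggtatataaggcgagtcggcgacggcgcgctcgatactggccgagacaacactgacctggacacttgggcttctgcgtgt
Hsp90b1 (chromosome 10, 86705633 to 86705661, minus strand): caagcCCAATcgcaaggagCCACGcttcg
Hsp90b1 (chromosome 10, 86705528 to 86705556, minus strand): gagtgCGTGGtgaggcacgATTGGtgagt
Calr (chromosome 8, 84847070 to 84847098, minus strand): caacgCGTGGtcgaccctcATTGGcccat
Dnajc3 (chromosome 14, 118937822 to 118937850, plus strand): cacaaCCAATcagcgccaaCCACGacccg
Creld2 (chromosome 15, 88819515 to 88819543, plus strand): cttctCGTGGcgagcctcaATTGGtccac
Pdia6 (chromosome 12, 17266486 to 17266514, plus strand): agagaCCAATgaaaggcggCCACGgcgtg
Canx (chromosome 11, 50325795 to 50325823, minus strand): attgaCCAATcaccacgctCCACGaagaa
Ero1lb (chromosome 13, 12565677 to 12565705, plus strand): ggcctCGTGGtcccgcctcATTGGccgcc
Syvn1 (chromosome 19, 6046527 to 6046555, plus strand): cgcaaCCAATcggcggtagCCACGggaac
Dnajb11 (chromosome 16, 22857847 to 22857867, plus strand): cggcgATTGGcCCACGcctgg
Herpud1 (chromosome 8, 94386372 to 94386392, plus strand): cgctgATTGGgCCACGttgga

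The Hspa5 element lies 65 to 47 bases before the gene start, that of Pdia6 98 to 80 and that of Dnajc3 105 to 87 bases before it, and the ERSE-II of Dnajb11 lies inside the transcribed part. A match describes letters in this window, not binding.

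The daily curve of the chaperones was not a single smooth wave. For most of them the mean at ZT20 was below the means at ZT16 and ZT24, so that the fitted peak near ZT21 fell in a local dip of the measured means. The mean at ZT20 was below the means at both ZT16 and ZT24 in 22 of 37 genes in aged (59.5%, against 32.9% of all genes tested) and in 25 of 37 in young macrophages (67.6%, against 33.3%); for the chaperones it was 8 of 11 in aged and 10 of 11 in young macrophages. The highest of the 7 means fell at ZT0 or ZT24 in 17 of 37 genes in aged (45.9%, against 24.3% of all genes) and in 30 of 37 in young macrophages (81.1%, against 26.7%). The lowest mean fell at ZT4, ZT8 or ZT12 in 35 of 37 genes in aged (94.6%, against 47.1%) and 30 of 37 in young macrophages (81.1%, against 44.4%). These counts were chosen after the values were seen and carry no test; since each time is 1 set of 3 libraries, a property of the ZT20 libraries and a second wave cannot be told apart.

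A 12 h component added to the 24 h cosine passed in 0 of 37 genes in aged macrophages (0.00832% of all genes) and in 1 in young ones (0.0826% of all genes), with 11 of 37 at an unadjusted p under 0.05 in each age (29.7%, against 9.89% of all genes in aged and 8.84% in young). The 1 gene was Herpud1, an ER membrane protein that organizes the HRD1 ligase complex and is among the most stress-responsive ERAD genes. In aged macrophages Herpud1 had 2024, 2028 and 2031 at ZT0, 1479, 1195 and 1642 at ZT4, 2093, 1920.0 and 1888 at ZT8, 2029.6, 1751 and 2029 at ZT12. The later aged libraries had 1415, 1859 and 1647 at ZT16, 1841, 1812 and 1781 at ZT20, 2053, 1857 and 2183 at ZT24. In young macrophages it had 1794, 2552 and 1876 at ZT0, 1219, 1332 and 1189 at ZT4, 1665, 1519.8 and 1540.5 at ZT8, 1833, 2099 and 2187 at ZT12. The later young libraries had 1882, 1987 and 1863 at ZT16, 1683, 1427 and 1689 at ZT20, 2174, 2514 and 2429.6 at ZT24. In both ages the ZT4 libraries were the lowest group; the 3 young libraries at ZT4 lay below all others, and 2 aged ZT4 libraries lay above the lowest aged ZT16 library. Its 12 h amplitude was 0.24 ± 0.05 in aged (adjusted p = 0.139) and 0.31 ± 0.05 in young macrophages (adjusted p = 0.0174), with young maxima near ZT12 and ZT24; the young call was lost without young ZT20 replicate 2 or 3 (adjusted p up to 0.052). Next by p were Ero1lb in aged, with 0.41 ± 0.11 (adjusted p = 0.248), and Calr in young macrophages, with 0.22 ± 0.04 (adjusted p = 0.0948).

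**Figure D3:**
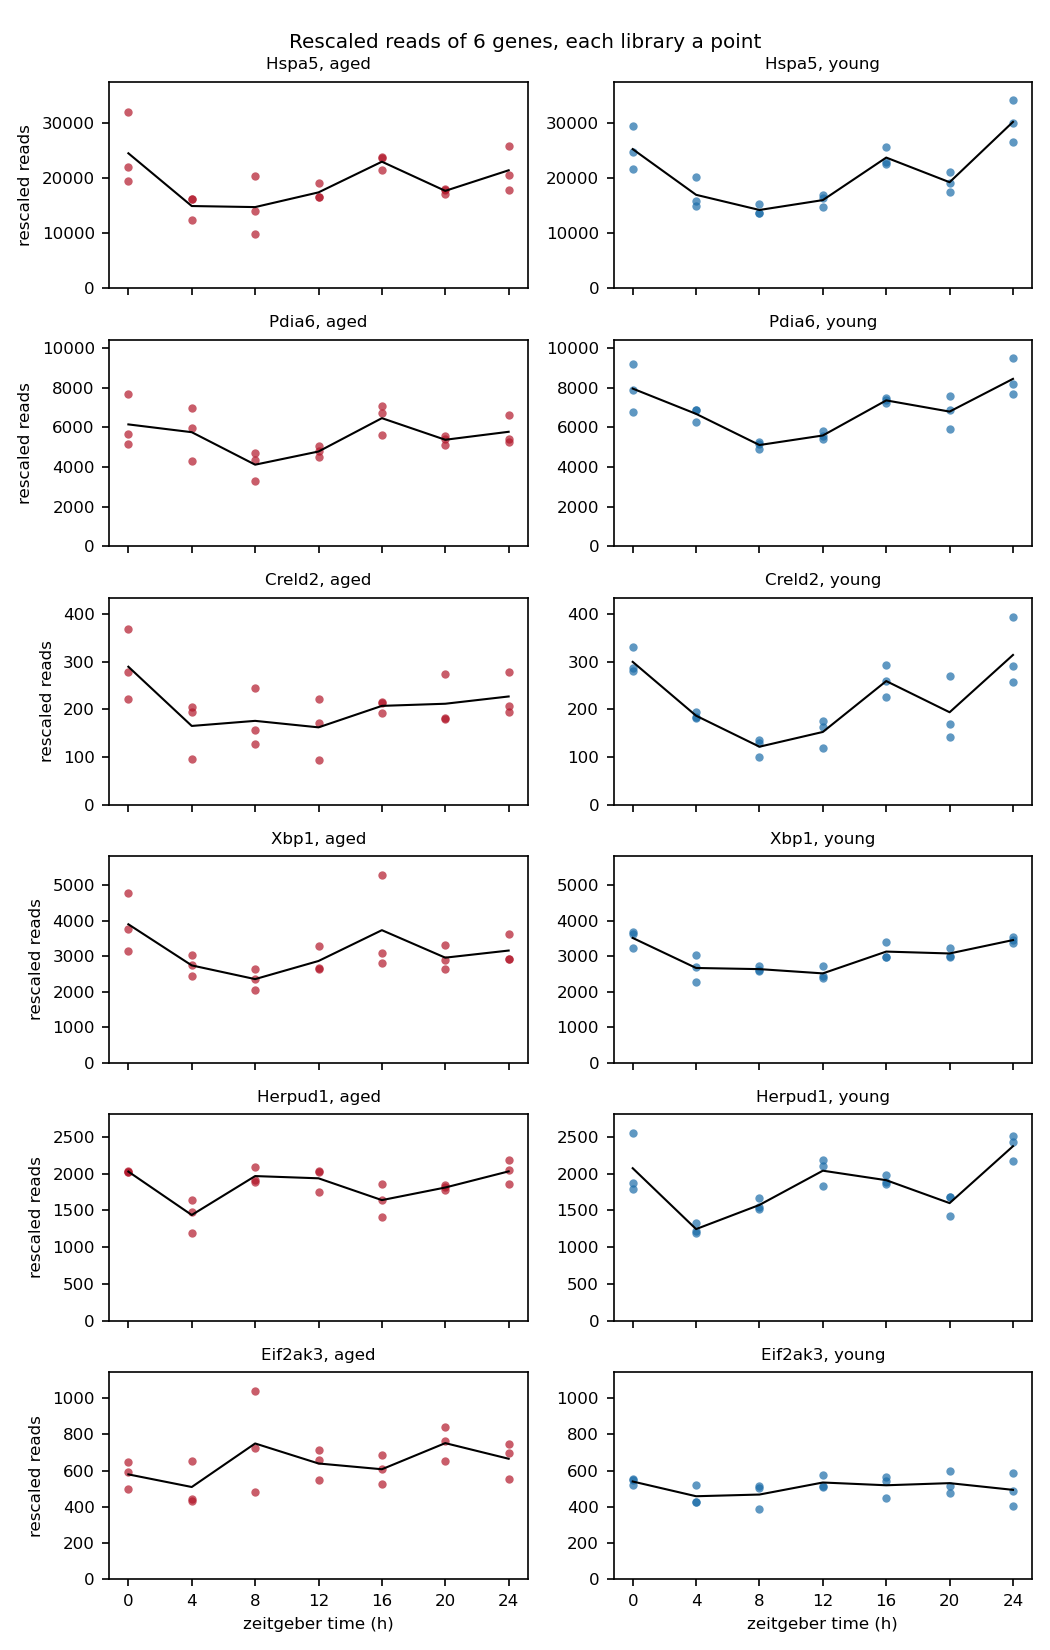
Rescaled reads (y axis, from 0) of 6 genes by zeitgeber time (x axis, h), with aged macrophages in the left column and young in the right; each point is 1 library and the line joins the means of 3. Hspa5 and Pdia6 are lowest at ZT8 in both ages, Herpud1 is lowest at ZT4, and Eif2ak3 spreads to 1039 reads in one aged ZT8 library.

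ZT0 and ZT24 are the same hour of the day in separate libraries, and no gene passed a test between them: 0 of 37 passed in aged (0% of all genes) and 0 of 37 in young macrophages (0% of all genes), and no other tool was run on this contrast. At an unadjusted p under 0.05 there were 3 of 37 in aged (8.11%, against 3.50% of all genes) and 2 of 37 in young macrophages (5.41%, against 4.58%). The estimate was below 0 for 24 of 37 genes in aged (64.9%, against 50.02% of all genes) and for 11 of 37 in young macrophages (29.7%, against 49.4%), counts that carry no test. Dnajb9 had 730.3, 814 and 830.4 reads at ZT24, against 1170.1, 1237 and 1024 at ZT0, in aged libraries, and 1056, 1078 and 933 at ZT24, against 789, 963 and 1028 at ZT0, in young libraries. The aged Dnajb9 libraries did not overlap between the 2 times and the young ones did (log2 difference -0.53 ± 0.20 in aged, adjusted p = 1, limma). Ssr1 had the lowest p in young macrophages (0.28 ± 0.09, adjusted p = 0.983), with 2412, 2588 and 2554 at ZT24 and 1933, 2065 and 2237 at ZT0.

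Although 13 genes passed in young and none in aged macrophages, the rhythms were not shown to differ between the ages. In 1 model over all 42 libraries, 0 of 37 genes passed the test of a different rhythm (0% of all 12109 genes tested; 494 genes at an unadjusted p under 0.05), and edgeR and DESeq2 called none of the 37 either. Ero1l was the only one at an unadjusted p under 0.05 (limma, adjusted p = 0.999). Its fitted peak was at ZT15.2 in aged and ZT1.3 in young macrophages. The amplitude was smaller in aged macrophages for 10 of 11 chaperones and for 23 of 37 genes (62.2%, against 50.7% of all genes). For Hspa5 the aged amplitude minus the young was -0.11 (95% interval -0.36 to 0.15). It was for Manf -0.20 (-0.46 to 0.06) and for Hsp90b1 -0.02 (-0.17 to 0.13). These 3 intervals include 0. Those of 2 genes did not, in opposite directions: Pdia4 had -0.20 (-0.37 to -0.04), a smaller aged amplitude, and Sec61a1 0.15 (0.00109 to 0.30), a larger one. Both had an adjusted p of 0.999 in limma's test of the rhythm, and these intervals are not adjusted for the 37 genes.

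Beside these tests stands the spread between libraries of 1 age and time. Its SD on the log2 scale had a median over the 37 genes of 0.24 in aged and 0.18 in young macrophages, against 0.31 and 0.27 over all genes, and it was larger in aged macrophages for 32 of 37 genes (86.5%, against 66.1% of all genes). For Xbp1 it was 0.26 in aged and 0.11 in young libraries, and for Hspa5 0.28 and 0.16. The part of this spread in the missing aged calls was not tested.

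Averaged over the 7 times, 5 of 37 genes were higher (13.5%, against 12.0% of all genes tested) and 6 lower (16.2%, against 11.7%), both shares near the background, so neither count sets the 37 genes apart. The higher genes were the 3 sensors Eif2ak3, Atf6 and Ern1, the oxidase Ero1lb and the ligase Syvn1, and the lower ones Pdia6, Canx, Hsp90b1, Sdf2l1, Sec61b and Ssr2. By role, 3 of 6 sensors and factors were higher and 0 lower, 3 of 11 chaperones lower and 0 higher, and 2 of 6 translocon genes lower and 0 higher; 1 disulfide enzyme was higher and 1 lower, and 1 of 8 ERAD genes was higher; a difference between the roles was not tested. The median log2 difference was -0.06 over the 37 genes, against 0.00 over all genes, 0.20 over the sensors and factors and -0.16 over the chaperones.

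**Figure D4:**
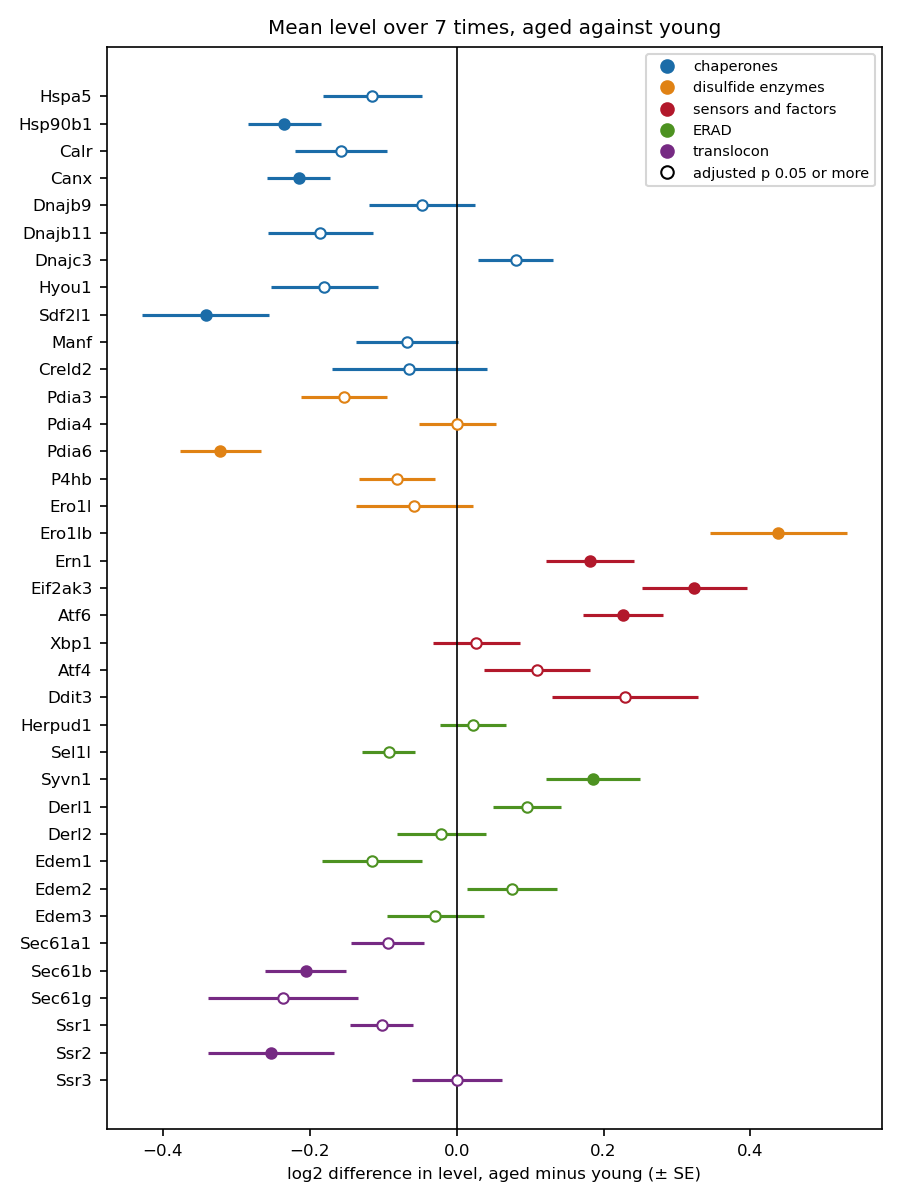
Log2 difference in level between aged and young macrophages over 7 times (x axis, aged minus young, bars ± SE) for 37 genes (rows) coloured by role; filled points passed the test. All 6 sensors and factors lie right of 0, and 10 of 11 chaperones lie left of it.

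Eif2ak3, the PERK kinase, had 434 to 1039 rescaled reads (median 653) in the 21 aged libraries. Eif2ak3 had 386 to 598 in the 21 young libraries (median 515). Its ranges overlapped, with the highest aged library at ZT8, and the log2 difference was 0.32 ± 0.07 (SE; adjusted p = 0.000637, limma). Atf6 had 558 to 939.7 rescaled reads (median 725) in the 21 aged libraries. Atf6 had 518 to 852 in the 21 young libraries (median 641), for a difference of 0.23 ± 0.05 (adjusted p = 0.00163). Ern1, the IRE1 kinase and ribonuclease, had 453 to 933 rescaled reads (median 676) in the 21 aged libraries. Ern1 had 453 to 758 in the 21 young libraries (median 592), for a difference of 0.18 ± 0.06 (adjusted p = 0.0218; adjusted p = 0.107 without the ZT24 libraries). The ranges overlapped for all 3 sensors. The factors below the sensors did not pass. Xbp1 averaged 3098 ± 761.9 rescaled reads in aged and 2996 ± 423.3 in young macrophages (SD, n = 21 each), a log2 difference of 0.03 ± 0.06 (adjusted p = 0.8). Atf4 averaged 2717 ± 582.6 rescaled reads in aged and 2496 ± 395.9 in young macrophages (SD, n = 21 each) (0.11 ± 0.07, adjusted p = 0.294). Ddit3 averaged 281 ± 65.2 rescaled reads in aged and 241 ± 65.7 in young macrophages (SD, n = 21 each) (0.23 ± 0.10, adjusted p = 0.0905).

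Ero1lb, the oxidase known for its role in insulin-producing cells, had the widest difference among the 37 genes, with 164 to 443 rescaled reads (median 244) in the 21 aged libraries. Ero1lb had 116 to 265 in the 21 young libraries (median 193) (0.44 ± 0.09, adjusted p = 0.000385). Syvn1 was also higher in aged macrophages (0.19 ± 0.06, adjusted p = 0.029). The call was lost without any of 6 single libraries: young ZT0 replicate 1, young ZT4 replicate 3, young ZT20 replicate 2, young ZT24 replicate 3, aged ZT4 replicate 3 or aged ZT8 replicate 2 (adjusted p up to 0.0564), and with scaling to the library total. Pdia6, on the other side, had 3295 to 7677 rescaled reads (median 5442) in the 21 aged libraries. Pdia6 had 4899.8 to 9484 in the 21 young libraries (median 6877), and a difference of -0.32 ± 0.06 (adjusted p = 2.03e-05), the lowest p of the 37 genes. Canx had 5319 to 8401 rescaled reads (median 6907) in the 21 aged libraries. Canx had 7119 to 9169.7 in the 21 young libraries (median 8088) (-0.22 ± 0.04, adjusted p = 0.000162). Hsp90b1 had 5368 to 10073 rescaled reads (median 8241) in the 21 aged libraries. Hsp90b1 had 7069 to 12344 in the 21 young libraries (median 9296) (-0.23 ± 0.05, adjusted p = 0.000354). For each of these 3 genes the aged median lay below the young median while the ranges overlapped.

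Sdf2l1 (-0.34 ± 0.09, adjusted p = 0.00267), the translocon subunit Sec61b (-0.21 ± 0.05, adjusted p = 0.00445) and the TRAP subunit Ssr2 (-0.25 ± 0.09, adjusted p = 0.0266) were lower as well. Sdf2l1 averaged 609.8 ± 181.4 rescaled reads in aged and 759.7 ± 177.3 in young macrophages (SD, n = 21 each), and Sec61b 1177 ± 176.0 rescaled reads in aged and 1354 ± 167.7 in young macrophages (SD, n = 21 each). The Ssr2 call was lost without young ZT20 replicate 2, young ZT24 replicate 2, aged ZT0 replicate 1 or aged ZT16 replicate 2 (adjusted p up to 0.0531), and without the ZT24 libraries (adjusted p = 0.0668). Pdia3 (-0.15 ± 0.06, adjusted p = 0.0501) and Dnajb11 (-0.19 ± 0.07, adjusted p = 0.0523) lay just outside. BiP itself did not pass: Hspa5 averaged 19092 ± 4830.3 rescaled reads in aged and 20804 ± 5895.1 in young macrophages (SD, n = 21 each), a difference of -0.12 ± 0.07 (adjusted p = 0.234). With reads scaled to the library total 12 of 37 genes were lower, and without aged ZT0 replicate 2, aged ZT8 replicate 1 or aged ZT24 replicate 3 the count was 11.

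Markers of other cell types differed between the ages and, in aged macrophages, between times. B cell markers summed to 5045 to 20733 rescaled reads (10 of 10 genes with a mean of at least 10) in aged and 5075 to 9183 (10 of 10) in young libraries. The highest sum was in aged ZT8 replicate 2, the library that also held the highest Eif2ak3 and the lowest Hspa5, Calr and Pdia6 values. Plasma cell markers, of interest because plasma cells are rich in ER, summed to 5012 to 16655 in aged and 4800 to 7562 in young libraries (8 of 9 genes with a mean of at least 10 in each). Jchain averaged 78.7 in aged and 16.5 in young libraries, Mzb1 3732 and 2001, Sdc1 81.4 and 193, and Tnfrsf17 2.31 and 2.66. The sum rests mostly on Mzb1, Pou2af1 (2206 in aged and 1767 in young) and Tnfrsf13b (1579 and 1251). Irf4 averaged 646 and 697, and Prdm1 295 and 79.7. Whether the sum reflects plasma cells or B cells was not tested. T and NK cell markers summed to 639 to 2313 in aged and 673 to 1288 in young libraries (9 and 5 of 10 genes). Most of that sum is Cd2, which averaged 1048 in aged and 828 in young libraries, while Cd3e averaged 16.4 and 6.99. All genes of this list but Ncr1 (0.541 and 1.53) averaged higher in aged libraries. Mast cell markers summed to 1511 to 4107 in aged and 1477 to 3183 in young (7 and 6 of 8). The mast cell sum followed Hdc, which averaged 1823 in aged and 966 in young libraries. Ms4a2 was also higher in aged libraries. Cpa3 (351 and 455), Cma1 (395 and 462), Tpsb2 (177 and 240), Mcpt4, Tpsab1 and Kit averaged lower in aged libraries. Neutrophil markers summed to 321 to 868 in aged and 248 to 597 in young libraries (4 of 8 each). That sum is mostly S100a8 (205 in aged and 116 in young) and Csf3r (203 and 176). Ly6g was near 0 (0.257 and 0.0798), and Retnlg (18.4 and 46.0), Camp and Ngp averaged lower in aged libraries. Dendritic cell markers summed to 139 to 429 in aged and 309 to 635 in young (3 and 4 of 6), mostly Cd209a (154 and 345). Xcr1 and Siglech, both below a mean of 10, averaged higher in aged libraries. Mesothelial and fibroblast markers summed to 24.9 to 151 in aged and 0 to 31.1 in young libraries (1 and 0 of 8), with Msln at 0 in all young libraries. Their part in the differences between ages and times was not tested. Leaving out aged ZT8 replicate 2 kept every call of a higher or lower gene except that of Syvn1. Other aged libraries, among them ZT20 replicate 1 (15544.5) and ZT4 replicate 3 (13897.1), still held B cell sums above the young range. This omission therefore does not test the part of the markers.

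Taken time by time, the ages differed less clearly, with 3 libraries on each side. No gene of the 37 passed at ZT0 (0.793% of all genes), ZT4 (1.35%), ZT8 (4.01%), ZT12 (2.06%), ZT16 (1.07%) or ZT20 (1.65%), and 1 passed at ZT24 (2.09%). At an unadjusted p under 0.05 (limma; no other tool was run here) the count was 3 of 37 at ZT0 (8.11%, against 10.6% of all genes), 2 at ZT4 (5.41%, against 14.3%), 9 at ZT8 (24.3%, against 16.3%) and 0 at ZT12 (against 12.0%). It was 1 at ZT16 (2.70%, against 10.7%), 6 at ZT20 (16.2%, against 12.8%) and 16 at ZT24 (43.2%, against 13.3%). At ZT24 29 of 37 genes had a negative difference (78.4%, against 49.6% of all genes). The ZT8 comparison is the one in which the B cell and plasma cell sums of the ages were farthest apart. The 1 call was Pdia6, with 5442, 5291 and 6617 reads in aged and 7688, 9484 and 8191 in young libraries, without overlap (-0.55 ± 0.15, adjusted p = 0.0355). It was lost without any of the 3 young ZT24 libraries or without aged ZT24 replicate 1 or 2 (adjusted p up to 0.202), and without aged ZT24 replicate 3 the count of lower genes at ZT24 was 4. Sdf2l1 at ZT24 had 374, 523 and 793 in aged and 883, 961 and 809.9 in young libraries (-0.71 ± 0.23, adjusted p = 0.0955), again without overlap. At ZT8 Eif2ak3 had 483, 1039 and 728 in aged and 386, 503 and 514 in young libraries (0.62 ± 0.19, adjusted p = 0.0513), with one aged library inside the young range.

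Other genes of the same pathway were read from lists of known components. Over all genes 0.308% passed the 24 h test in aged and 3.62% in young macrophages. In level 12.0% of all genes were higher in aged macrophages and 11.7% lower. Of 12 oligosaccharyltransferase genes, which attach N-glycans to proteins entering the ER, 0 passed the 24 h test in aged and 3 in young macrophages. These were Magt1 (0.18 ± 0.04, adjusted p = 0.0245), Stt3b (0.20 ± 0.05, adjusted p = 0.0289) and Rpn1 (0.15 ± 0.04, adjusted p = 0.0436). All 12 had a negative aged-minus-young level difference and 6 passed as lower (against 11.7% of all genes). Among them were Magt1 (-0.26 ± 0.05, adjusted p = 0.000128), Ostc (-0.24 ± 0.05, adjusted p = 0.000614) and Rpn1 (-0.18 ± 0.05, adjusted p = 0.00354). Of 24 further genes of the translocon, signal recognition and signal peptidase tested, 0 passed the 24 h test in aged and 4 in young macrophages, led by the signal peptidase subunits Spcs3 (0.37 ± 0.06, adjusted p = 0.000349) and Spcs2 (0.25 ± 0.05, adjusted p = 0.00487). In level 1 of these 24 was higher in aged macrophages, Tram2 (0.29 ± 0.09, adjusted p = 0.0167), and 3 lower, led by the peptidase Sec11a (-0.24 ± 0.04, adjusted p = 5.18e-05). The lower count is near the 11.7% of all genes, so it does not set these genes apart.

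Of 31 other ER folding genes tested, 0 passed the 24 h test in aged and 1 in young macrophages, the reductase Dnajc10 (0.22 ± 0.05, adjusted p = 0.0152). The young count is near the 3.62% of all genes, so it does not set these genes apart. In level 3 were higher in aged macrophages (against 12.0% of all genes) and 6 lower (against 11.7%), the higher count near that share. The disulfide isomerase Txndc5 was higher (0.36 ± 0.07, adjusted p = 0.000132), and the glucosidase Mogs (-0.32 ± 0.05, adjusted p = 5.25e-06) and the peroxiredoxin Prdx4 (-0.56 ± 0.09, adjusted p = 8.66e-06) were lower. Of 23 other ERAD genes, 0 passed the 24 h test in aged and 1 in young macrophages, Ubxn4 (0.19 ± 0.05, adjusted p = 0.0487), again near the share of all genes. In level 1 was higher in aged macrophages (against 12.0% of all genes), the ubiquitin-conjugating enzyme Ube2g2 (0.16 ± 0.06, adjusted p = 0.0368). Of 21 accessory genes of unfolded protein response sensing, none passed the 24 h test in either age (limma; 5 in aged and 3 in young at an unadjusted p under 0.05). In level 3 of them were higher in aged macrophages, led by the ER membrane protein Wfs1 (0.37 ± 0.10, adjusted p = 0.00672), and 1 lower, Bak1 (-0.28 ± 0.10, adjusted p = 0.0323). The higher count is near the 12.0% of all genes, so it does not set these genes apart.

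The targets of ATF4 and CHOP, the output of the PERK arm, had their peaks spread over the day. Of those tested, 0 of 26 passed the 24 h test in aged (against 0.308% of all genes) and 5 of 25 in young macrophages (against 3.62%). Of these, 6 of 26 in aged and 7 of 25 in young macrophages had their fitted peak between ZT18 and ZT24. So had 27 of the 37 ER genes in each age, 25.9% of all genes in aged and 28.1% in young macrophages. Ddit4, an mTOR inhibitor, led with 0.73 ± 0.13 (adjusted p = 0.0023) and a peak at ZT14.5. In level 3 of 25 were higher in aged macrophages (against 12.0% of all genes) and 6 lower (against 11.7%). The higher count is near the share of all genes, so it does not set these genes apart. Ppp1r15a (GADD34), the phosphatase subunit that ends the PERK signal, was higher (0.35 ± 0.08, adjusted p = 0.000881), and the serine and one-carbon enzymes Psat1 (-0.86 ± 0.15, adjusted p = 1.79e-05) and Mthfd2 (-0.49 ± 0.10, adjusted p = 0.000161) were lower. Of the heat shock genes, chaperones outside the ER, 2 of 20 tested passed in aged and 11 of 19 in young macrophages, with Hsph1, a cytosolic HSP110, at 1.02 ± 0.15 and a peak at ZT20.2 in young macrophages (adjusted p = 0.000238). In level 0 of 20 were higher in aged macrophages and 11 lower (against 11.7% of all genes), led by the mitochondrial chaperonin Hspd1 (-0.35 ± 0.06, adjusted p = 1.31e-05). These lists were assembled with results of these data known, so their counts are descriptions.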

How the data were processed

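Libraries of 3′ RNA-seq (Lexogen QuantSeq, Trizol and PureLink, per the labels' protocols) from 21 aged and 21 young macrophage samples were analysed. The submitters' processing notes name STAR, DESeq2 and mm10, without versions; no counter, annotation or strand setting is stated there. The deposited signal values are gene counts that the authors divided by size factors, separately for each age. Whole reads were recovered from their steps (100.0% of values whole within 0.001). Gene symbols and coordinates came from GENCODE M21 (GRCm38, the same assembly as mm10), which named 47224 of 47643 IDs. Of the 37 genes, 13 overlap an annotated gene on the opposite strand (Hsp90b1, Dnajb9, Dnajb11, Manf, Pdia3, Pdia6, Eif2ak3, Ddit3, Herpud1, Syvn1, Derl2, Sec61a1 and Ssr2), whose reads cannot be told apart without strand.

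Within each age, log2(value + 1) of genes with a mean of at least 10 was fitted with limma 3.58.1 (trend; R 4.3.3) to a 24 h cosine and sine, to an added 12 h pair, and to ZT24 against ZT0. Fold changes are on this log2(value + 1) scale, which understates low genes. Between ages, recovered reads of all 42 libraries were put on one scale (median of ratios), and the level over 7 times, the level at each time and the age-by-cosine terms were tested. P-values were adjusted by Benjamini-Hochberg over all genes, with calls at an adjusted p under 0.05. Count tests on the recovered reads with edgeR 4.0.16 called 36 genes in aged and 467 in young macrophages for the 24 h rhythm, and those with DESeq2 1.42.0 called 91 in aged and 696 in young. The fits were tested on simulated data. The labels do not say that libraries come from separate mice, so p-values reflect only how much these samples vary, which may be technical; no pair of the same group was a copy (chi-square per gene 7.82 to 59.1 over 42 pairs). Promoters were read with Python 3.11.15. Every gene of the set is named; values in full are given for the lowest p-values of each test and for the sensors and their factors. The genes and lists were chosen with earlier results of these data known.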

Additional observations from a re-analysis of the deposited data

How the results depend on the processing

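No called gene changed direction under any alternative that fits one (pseudocount, filter, scaling, array weights, times or libraries left out, edgeR or DESeq2). With time as 7 levels no direction is fitted, so single genes were not compared there. Of 143 re-tests of the 13 young rhythm calls 131 kept the call, and of 121 re-tests of the 11 level calls 117 did. Over all genes, the aged rhythm count of 37 became 91 with DESeq2, and the young count of 438 became 262 without the ZT0 libraries and 696 with DESeq2. Genes with a different rhythm numbered 0, but 7 with a pseudocount of 5, 1 with array weights, 4 without the ZT0 libraries, 3 with 7 time levels, 4 with edgeR and 7 with DESeq2, none of them among the 37. Of the 37, the genes lower in level numbered 6, but 12 with scaling to the library total and 11 with array weights, and those higher at ZT8 numbered 0, but 1 with a pseudocount of 5; the cause was not tested.

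With 1 library left out, aged rhythm calls among the 37 stayed at 0 (26 to 45 over all genes), young ones ranged from 11 to 14 (322 to 504 over all genes), young 12 h calls ranged from 0 to 2, genes higher in level from 4 to 6 and lower from 5 to 11 (1334 to 1514 and 1302 to 1484 over all genes), genes higher at ZT0 from 0 to 1, higher at ZT8 from 0 to 1 and lower at ZT24 from 0 to 4, and different rhythms over all genes from 0 to 5. The 12 h count was 2 without young ZT4 replicate 1 or young ZT12 replicate 1, and the ZT0 count was 1 without aged ZT0 replicate 2. Replicate numbers did not pair the libraries: deviations of same-numbered libraries had a median correlation of -0.01 in aged, -0.00 in young and 0.00 across ages. With the replicate block, aged rhythm calls among the 37 were 0 (37 over all genes), young ones were 11 (387 over all genes), since Pdia4 and Edem1 were lost, level calls were 5 higher and 6 lower, and the other counts of the 37 genes did not change. Small rhythms and differences at single times are limited by 3 libraries per group; the shallowest library held 4864402 reads.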
